A study of Mus musculus with 94 samples.

Results

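The genes of the elastic fibre and its microfibrils were examined in single primary PV-ADSCs, the stem cells of perivascular adipose tissue (PVAT), which is the fat that surrounds the vessel. The genes were a list of names that was chosen with earlier results of these data known. They were Eln, Fbn1, Fbln1, Fbln2, Fbln5, Efemp1, Efemp2, Mfap4, Emilin1 and Ltbp4. All 10 had a row in the deposited table, which holds 16069 genes. The cells came from 8-week mice (strain c57/bl in the labels, C57BL/6J in the study's methods), from the fat along the thoracic aorta, were sorted without culture as CD144-/CD45-/CD29+/Sca1+ cells, and were made into 1 full-length cDNA library each with SMARTseq v4. The study described 94 such cells of a single condition, labelled as normal adipose tissue, of which 85 are in the table, and the other 9 were not analysed here. Since no label names the animal of a cell, all cells together count as 1 sample, cells are compared by description alone, and each SD below is a spread across cells. Cells with a Dcn value of at least 1000 were called stromal (58 cells) and the rest were called other cells (27 cells). Dcn encodes decorin, a small proteoglycan of fibroblasts.

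Elastic fibres give arteries, lung and skin their recoil. Tropoelastin, the product of Eln, is secreted, gathered into globules with the help of fibulins, laid down on microfibrils built of fibrillin-1 (Fbn1) and cross-linked by enzymes of the lysyl oxidase family. In the vessel wall the main elastin producers are the smooth muscle cells of the media, while microfibrils are also made by fibroblasts of the adventitia, the outer layer that merges with the perivascular fat.

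Values in the table are normalized read counts, which were brought back to whole reads where stated (CPM is recovered reads per 1000000 recovered reads of the cell). The recovered depth was 1146945 to 4776510 reads per cell with a median of 2847986. Stromal cells had a median of 2813 genes above 0, compared with 1416 in other cells, at median depths of 2963854 and 2714449 reads. Dcn separated the classes widely, at 6521 to 365531 in stromal cells and 5.17 to 269 in other cells, and the next value above the lowest stromal one was 11185. Of 7 further stromal markers (Col1a1, Col1a2, Col3a1, Lum, Pdgfra, Serping1 and Gsn), at least 4 reached 100 reads in 54 of 58 stromal cells and in 0 of 27 other cells. Of 15 endothelial markers, at least 3 reached 100 reads in 24 of 27 other cells and in 1 of 58 stromal cells. This was cell 34, with 6 endothelial and 6 stromal markers at that level. The sort gate was set on surface proteins, so reads of the gate genes are a different measure. Cdh5, the gene of the excluded CD144, was above 0 in 23 of 27 other cells and in 7 of 58 stromal cells. Of the positive markers, Ly6a (Sca1) was above 0 in 52 stromal and 21 other cells, and Itgb1 (CD29) in 35 and 12.

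Cell 50 stood apart and is in doubt as a stromal cell. It passed the Dcn threshold with 69 reads because its deposited values of the genes scaled together with Dcn had been multiplied by 94.5, compared with a median factor of 0.829 in the other 57 stromal cells. It had the fewest reads of all cells (1146945), 850 genes, 0 of 7 stromal markers at 100 reads and only 2 of the 10 genes, Fbln2 with 10 reads and Fbln5 with 4 reads. Without it, the median stromal cell still had 6 of the 10 genes, the median difference between the classes was 5.19 in place of 5.10, the median rho over pairs was 0.0750 in place of 0.0846, and the counts of 9 genes and of 40 pathway genes given below were as with it. The count of pairs of genes with a rho of at least 0.3 fell, as given there.

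To show regulatory sequence of genes that behaved differently in the results, the 250 bases before the transcription start were taken from RefSeq (GRCm38.p6) for Fbln1, which was found in most stromal cells and in no other cell, and for Fbln5 and Efemp1, the pair with the second lowest rho among stromal cells. A window was found for 8 of the 10 genes, and none is given for Eln and Mfap4. Fbln1 and Fbln5 have 2 listed starts each, of which the outer was used. The windows are printed 5′ to 3′ on the strand of the gene (Fbln1 at chr15:85205699-85205948, plus strand; Fbln5 at chr12:101819120-101819369, minus strand; Efemp1 at chr11:28852955-28853204, plus strand). Capitals mark matches, on either strand, to a GC box (GGGCGG), an AP-1 site (TGANTCA) or a SMAD site (CAGAC).
Fbln1: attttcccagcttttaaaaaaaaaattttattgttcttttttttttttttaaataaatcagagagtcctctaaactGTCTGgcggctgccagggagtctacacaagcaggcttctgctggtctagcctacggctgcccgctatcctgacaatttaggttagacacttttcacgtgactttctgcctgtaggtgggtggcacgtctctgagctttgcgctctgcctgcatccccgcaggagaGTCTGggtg
Fbln5: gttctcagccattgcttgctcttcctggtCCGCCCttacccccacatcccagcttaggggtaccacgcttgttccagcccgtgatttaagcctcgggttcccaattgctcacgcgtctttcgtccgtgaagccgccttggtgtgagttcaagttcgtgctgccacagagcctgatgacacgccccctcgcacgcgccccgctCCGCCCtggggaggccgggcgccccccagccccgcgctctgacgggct
Efemp1: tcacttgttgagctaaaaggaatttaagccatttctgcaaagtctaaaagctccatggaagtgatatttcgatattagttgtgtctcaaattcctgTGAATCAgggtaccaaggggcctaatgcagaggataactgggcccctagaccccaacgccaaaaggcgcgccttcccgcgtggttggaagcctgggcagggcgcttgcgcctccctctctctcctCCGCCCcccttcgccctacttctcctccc

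The windows differed in base composition. That of Fbln5 had 65.2% GC and 21 CpG, that of Efemp1 53.6% and 10, and that of Fbln1 46.4% and 7, compared with medians of 52.4% and 6 over all 32851 mouse windows. Of the 8 windows, those of Fbn1, Fbln2 and Emilin1 lie wholly within exons of the GENCODE annotation. Those of Ltbp4 and Efemp1 do so for 80 bases and 1 base. The GC box was in 6 of the 8 windows of these genes and in 32.7% of all windows. Of the 6, those of Fbn1, Fbln2, Ltbp4 and Efemp1 are among the windows with exon bases. The AP-1 letters were found in 1 of the 8, that of Efemp1, and in 6.75% of all windows, while the SMAD site was in 3 of the 8 (Efemp2, Fbln1 and Emilin1, the last within exons) and in 42.2% of all windows. TATAAA and CATTCC, the letters of the TATA box and the TEAD site, were in none of the 8, compared with 12.4% and 12.6% of all windows. No match marked in the printed windows overlapped another, and a match is not a binding site.

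Stromal cells carried fibulin and microfibril genes with little elastin. The median stromal cell had 6 of the 10 genes above 0 (range, 2 to 10), and together the genes took 0.628% of its reads, or 6279 CPM (range, 12.2 to 20030). The median other cell had 1 (range, 0 to 4), with 1.91 CPM (range, 0 to 4477). Thus 6 of the 10 genes were above 0 in at least 50% of stromal cells, compared with 14.5% of the 11478 genes found in at least 3 cells. Counts of cells by number of genes ran from 2 stromal cells with 2 genes, over 8 with 4, 16 with 5, 12 with 6, 12 with 7, 5 with 8 and 2 with 9, to 1 with all 10.

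**Figure D1:**
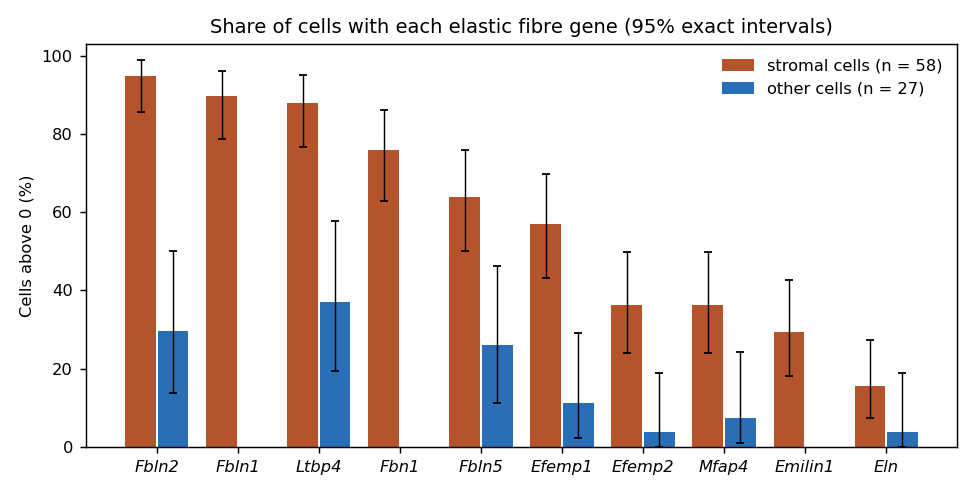
Share of cells above 0 (y axis, %) for each gene (x axis) in 58 stromal cells and 27 other cells, with exact 95% intervals that cover counting error only. Fbln2, Fbln1 and Ltbp4 were in 94.8%, 89.7% and 87.9% of stromal cells, Eln was in 15.5%, and Fbln1, Fbn1 and Emilin1 were in no other cell, where no interval is drawn.

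The gene that forms the elastic core was the scarcest. Eln, which encodes tropoelastin, was above 0 in 9 of 58 stromal cells (15.5%; 95% interval, 7.35 to 27.4) and in 1 of 27 other cells (3.70%; 0.0937 to 18.97). Its normalized read count had a median of 0 and a highest value of 803 in stromal cells, and the highest of the other cells was 4.81. Only 3 stromal cells reached 100 reads, with 359 reads as the lowest of these, and the remaining 6 held 1 to 56 reads. The mean of log2(value + 1) was 0.81 ± 2.28 (SD across cells, n = 58) in stromal cells and 0.09 ± 0.49 (n = 27) in other cells, a difference of 0.72. Eln was thus the only gene of the 10 whose difference was below 1. Thinning every cell to 1146945 reads left it in 7 stromal cells.

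The microfibril backbone gene Fbn1, which encodes fibrillin-1, was frequent in stromal cells and absent from the reads of other cells. Of 58 stromal cells, 44 were above 0 (75.9%; 62.8 to 86.1) and 40 had at least 100 reads. Its normalized read count ran from 0 over a median of 2347 to 40173, the highest value of any of the 10 genes. All 27 other cells were at 0, which allows a share of up to 11.1%. The mean of log2(value + 1) was 8.61 ± 5.39 in stromal cells, and the classes overlapped only through the 14 stromal cells at 0.

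Among the short fibulins and their larger relatives, Fbln1 and Fbln2 were the most widespread. Fibulin-1 and fibulin-2 are glycoproteins that bind elastin, fibrillin and basement membrane proteins. Fbln2 was above 0 in 55 of 58 stromal cells (94.8%; 85.6 to 98.9), with a median normalized read count of 3618 and a highest of 31198. It was above 0 in 8 of 27 other cells (29.6%; 13.8 to 50.2), of which 4 held 3 to 9 reads and 4 held at least 363 reads. The means of log2(value + 1) were 10.64 ± 3.69 and 2.03 ± 3.99, a difference of 8.61. So most stromal cells were high, and a few other cells reached the stromal range.

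Fbln1 had the sharpest separation of the classes. Reads were found in 52 of 58 stromal cells (89.7%; 78.8 to 96.1) and in 0 of 27 other cells, with the same upper limits of 11.1% and 12.8%. Its stromal values ran from 0 over a median of 1800 to 10239, and the mean of log2(value + 1) was 9.01 ± 4.01, which was also the difference between the classes. Only 45 stromal cells reached 100 reads, as 7 cells held 9 to 47 reads, more such low cells than for any other of the 10 genes. By difference, Fbln1 ranked 26 among all 11478 genes.

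Fbln5 encodes a fibulin that tethers elastin to cells through integrins and is needed for fibre assembly, and it was found in a smaller set of stromal cells. It was above 0 in 37 of 58 (63.8%; 50.1 to 76.01), and 34 had at least 100 reads. The stromal median was 1023 and the highest value 18542. In other cells it was above 0 in 7 of 27 (25.9%; 11.1 to 46.3), but 4 of these held 3 to 5 reads while 3 held at least 3322 reads, so that these 3 lay well inside the stromal range. The difference of the means was 4.88 (6.69 ± 5.48 and 1.82 ± 4.09).

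Efemp1 and Efemp2 encode fibulin-3 and fibulin-4, and fibulin-4 brings lysyl oxidase to tropoelastin. Efemp1 was above 0 in 33 of 58 stromal cells (56.9%; 43.2 to 69.8), with a median of 267 and a highest value of 13710. In other cells it was found in 3 of 27 with at most 12 reads, and the difference of the means was 5.80. Most of its stromal cells were high, since 31 of the 33 had at least 188 reads.

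Efemp2 was sparser. The gene was seen in 21 of 58 stromal cells (36.2%; 23.99 to 49.9) with a median of 0 and a highest value of 2716, and in 1 other cell with 7 reads. The difference of the means was 3.09.

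Mfap4 and Emilin1, the genes of glycoproteins found along the fibre, were each seen in a minority of stromal cells. Mfap4, a fibrinogen-domain protein that binds fibrillin and tropoelastin, was above 0 in 21 of 58 stromal cells (36.2%; 23.99 to 49.9), and 20 of these had at least 400 reads. Its median was 0 and its highest value 12019, while 2 other cells held 4 reads each. Emilin1, which lies at the interface of elastin and microfibrils and restrains TGF-β processing, was above 0 in 17 of 58 stromal cells (29.3%; 18.1 to 42.7) and in 0 of 27 other cells. The differences of the means were 4.0 for Mfap4 and 2.57 for Emilin1. Either gene was therefore detected at high reads or not detected in most stromal cells, with few intermediate values.

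Ltbp4, which encodes a latent TGF-β binding protein that also guides fibulin-5 onto microfibrils, was the gene found most often in other cells. It was above 0 in 51 of 58 stromal cells (87.9%; 76.7 to 95.01) with a median of 1327 and a highest value of 5789. It was above 0 in 10 of 27 other cells (37.04%; 19.4 to 57.6), where the highest value was 11794, above that of every stromal cell. No cell of either class held between 1 and 99 reads of Ltbp4, so each cell either had at least 146 reads or had none. The means of log2(value + 1) were 9.25 ± 3.61 and 3.93 ± 5.31, a difference of 5.32.

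**Figure D2:**
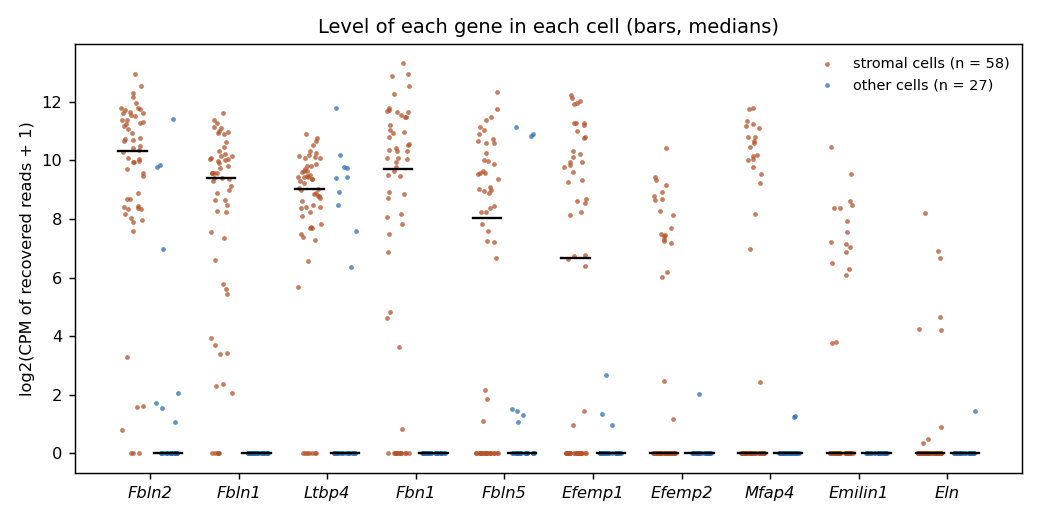
Level of each gene in each cell, as log2(CPM of recovered reads + 1) on the y axis, with stromal cells and other cells side by side and black bars at the medians. Most genes had a high group and a group at 0 among stromal cells, and Fbln2, Fbln5 and Ltbp4 had other cells at stromal levels.

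In all, 9 of the 10 genes had a difference of at least 1 in favour of stromal cells, where 35.6% of the 11478 genes did, and none had a difference of -1 or less, as 2.84% of genes did. Since the 10 genes were chosen with earlier results of these data known, the comparison with all genes is a description only. The median difference was 5.10 over the 10 genes and 0.64 over all genes, and on the CPM scale 4.42 and 0.50. Stromal cells had more genes above 0 than other cells, and 83.6% of all genes had the higher mean there. The part of this in the differences was not tested. After thinning to equal depth, the shares of stromal cells were as before for 9 of the 10 genes, all but Eln. Across the 10 genes, 31 of 580 stromal values lay between 1 and 99 reads, compared with 240 at 0 and 309 at 100 or more.

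Among genes above 0 in at least 10 stromal cells, 13.3% of 5383 were at 0 in every other cell, and 3 of the 9 genes that passed this filter were (Fbn1, Fbln1 and Emilin1). Conversely, 62.4% of those 5383 genes reached 100 reads in at least 1 other cell, compared with 3 of the 9 (Fbln2, Fbln5 and Ltbp4). Dcn itself was above 0 in all 27 other cells, at 4 to 248 reads, and its median there was 0.0144% of the stromal median. The 15 values of 1 to 99 reads that the 10 genes had in other cells were 3 to 12 reads each. For scale, the mean stromal reads of each gene were multiplied by the Dcn ratio, its median in other cells over its stromal mean. This gave 0.00407 (Eln) to 0.649 (Fbln2) reads per other cell. Whether the low values are expression or reads carried over from stromal cells was not tested.

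The other cells with a gene of the list at 100 or more reads numbered 12. All 12 had at least 3 endothelial markers at that level, but so did 24 of all 27 other cells. The 3 cells without them (cells 13, 67 and 89) had only 377, 285 and 405 genes above 0. Ltbp4 accounted for 10 of them, Fbln2 for 4 and Fbln5 for 3. Cell 55 had the most Ltbp4, with 10336 reads, together with 2684 reads of Fbln2. Ltbp4 occurred with Fbln2 in 3 cells and with Fbln5 in 1 cell (cell 69), and cell 3 held 6547 reads of Fbln5 with 363 reads of Fbln2. These 12 cells had 7 to 111 reads of Dcn, and at most 1 of the 7 stromal markers reached 100 reads in any of them.

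To compare levels between genes, CPM was divided by transcript length in kilobases, so that the following values are CPM per kilobase. In stromal cells the mean was highest for Efemp1 (407 ± 636, SD across 58 cells), followed by Fbln2 (358 ± 346), Mfap4 (317 ± 543), Fbln1 (216 ± 217), Fbn1 (129 ± 178), Fbln5 (116 ± 175), Ltbp4 (110 ± 86.3), Efemp2 (45.1 ± 92.4), Emilin1 (21.4 ± 57.6) and Eln (2.56 ± 11.1). The SD across cells exceeded the gap to the next gene throughout. All genes were measured in the same 58 cells, so this spread does not say whether neighbours differed. Cell by cell, Ltbp4 was higher than Efemp2 in 44 cells and lower in 10, and Fbln2 was higher than Mfap4 in 41 and lower in 14. The mean and the cell-by-cell order disagreed for Efemp1 and Fbln2, as Fbln2 was higher in 38 of 58 cells. They also disagreed for Mfap4 and Fbln1 (19 against 33 cells) and for Fbln5 and Ltbp4 (26 against 29). The leading gene of a cell was Efemp1 in 17 cells, Fbln2 in 15, Mfap4 in 14, Fbln1 in 8, Fbn1 in 2, and Efemp2 and Emilin1 in 1 each. By median, Fbln2 led with 267, followed by Fbln1 with 182. Relative to the mean, Ltbp4 had the smallest spread, and Eln the widest.

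Stromal cells thus differed in which of these genes were detected. Of all values in the table, 85.3% were 0, and transcripts missed by a library cannot be told apart from absent ones. Over the 45 pairs of genes, Spearman's rho across the 58 stromal cells had a median of 0.0846 (range, -0.445 to 0.451), and 36 pairs lay within 0.3 of 0. These points share their libraries, and each gene has zeros. For sparse genes such as Eln and Emilin1, rho thus reflects mainly whether the gene was detected. This holds less for Fbln2, Fbln1 and Ltbp4, which were at 0 in 3, 6 and 7 stromal cells. Of the 8 genes above 0 in at least 20 stromal cells, 5 of 28 pairs (17.9%) had a rho of at least 0.3 and 2 of 28 (7.14%) a rho of -0.3 or less, compared with 3.18% and 0.885% of all pairs of the 2707 genes above 0 in that many cells. Without cell 50 these were 3 of 28 (10.7%) and 2 of 28, compared with 2.78% and 1.20% of all pairs, as the pairs Fbn1 with Fbln2 and Mfap4 with Ltbp4 fell to 0.295 and 0.289. Most pairs thus did not go together from cell to cell, while a few did so in either direction.

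**Figure D3:**
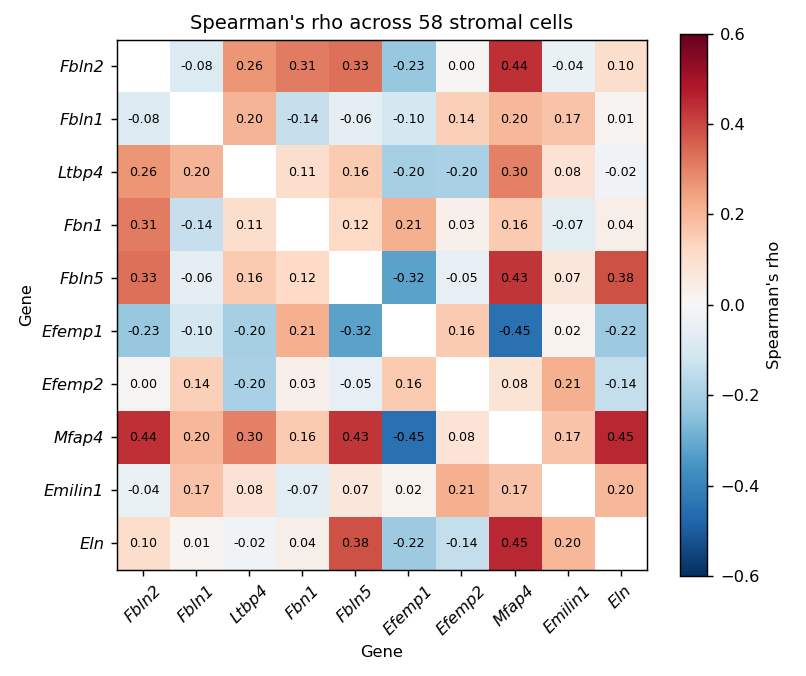
Spearman's rho between each pair of genes across 58 stromal cells, on log2(CPM + 1), printed in each square. Mfap4 had positive values with Eln, Fbln2 and Fbln5 and its lowest value with Efemp1.

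The most negative pair was Efemp1 and Mfap4, with a rho of -0.445 (-0.465 without cell 50). At 100 or more reads, Efemp1 alone was found in 26 stromal cells, Mfap4 alone in 15, both in 5 and neither in 12. Of the 20 cells with Mfap4 at that level, 6 had any read of Efemp1, compared with 27 of the other 38. The cells with and without Mfap4 had similar depth, at medians of 3015216 and 2914872 reads, and 2936 and 2734 genes. Efemp1 had a rho of -0.322 with Fbln5, the only other pair at or below -0.3.

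Mfap4 was the centre of the positive pairs. Its rho was 0.451 with Eln, 0.440 with Fbln2, 0.428 with Fbln5 and 0.3003 with Ltbp4. All 21 cells with Mfap4 also had Fbln1 and Fbln2, but so did 31 and 34 of the 37 stromal cells without it. Of the 9 cells with Eln, 7 had Mfap4. The 9 include cells 11, 47 and 49, with only 3, 1 and 1 reads of Eln. The median CPM of Fbln2 was 2583 in the 20 cells with at least 100 reads of Mfap4 and 799 in the other 38. Eln also had a rho of 0.383 with Fbln5, which was above 0 in 8 of its 9 cells (in cell 6 with only 3 reads). All 3 cells with at least 100 reads of Eln had Mfap4, Fbln5, Fbn1, Fbln1 and Ltbp4 at that level. The highest Eln was in cell 85 (887 reads), where Fbln2 was at 6 reads. Cell 79 was the only cell with all 10 genes, each at 252 or more reads. Cell 54 had only Fbln2 (6791 reads) and Fbln5 (6197 reads) of the 10, at 5 of 7 stromal markers.

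**Figure D4:**
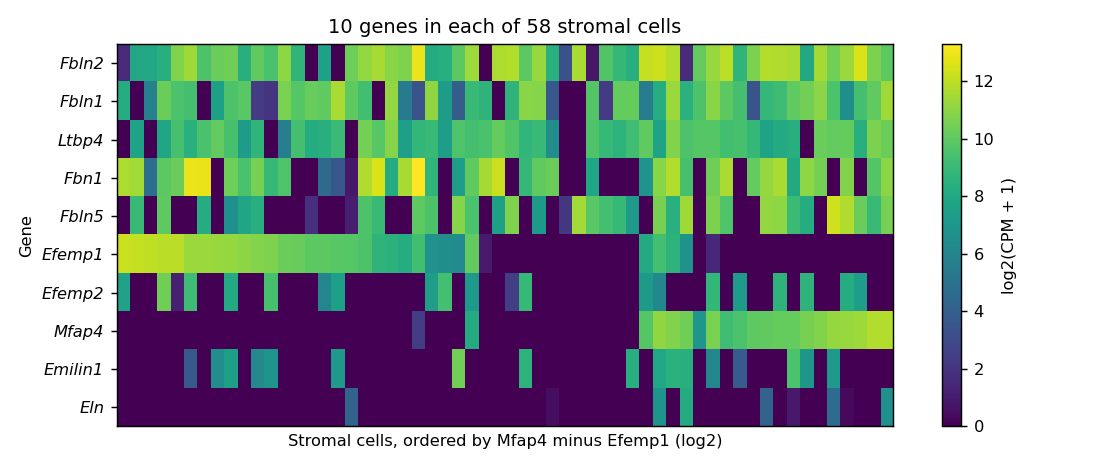
Level of each gene (rows) in each of the 58 stromal cells (columns), as log2(CPM + 1) in colour, with cells ordered by Mfap4 minus Efemp1. This order itself places Efemp1 on the left and Mfap4 on the right. At 100 or more reads, 5 cells had both and 12 had neither. Fbln2, Fbln1 and Ltbp4 are seen on both sides, with 3, 6 and 7 cells at 0.

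The genes whose levels were most like each of these across stromal cells were looked for among 1658 genes above 0 in at least 50% of stromal cells. They are the highest of many values and are given as a description. For Fbn1 they were Mfap5, which encodes a microfibril protein that binds fibrillin-1 (rho, 0.64), and Pi16, a marker of adventitial fibroblasts (0.59). The median CPM of Mfap5 was 6834 in the 40 cells with at least 100 reads of Fbn1 and 2077 in the other 18. Fbn1 was above 0 in 34 of 39 stromal cells with at least 100 reads of Pi16 and in 10 of the other 19, at median CPM of 1368 and 11.3. The median CPM of Fbln2 was 1956 with and 471 without Pi16 at that level, while Fbln1 went the other way, at 552 and 852. Emilin1 was also less frequent with Pi16, in 10 of 39 cells against 7 of 19.

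For Mfap4 they were Bgn, the gene of the proteoglycan biglycan (0.60), and Dstn, the gene of the actin-severing protein destrin (0.50). The median CPM of Bgn was 2296 with and 546 without at least 100 reads of Mfap4. Efemp1 was most like Ywhab (0.44) and Tspo (0.43), and its lowest value in the pool was with Mgp, the gene of the calcification inhibitor matrix Gla protein (-0.39). Fbln2 was most like Pcsk5 (0.52), a proprotein convertase, and Axl (0.51), a receptor tyrosine kinase.

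Fbln1 was most like Lamb2 (0.50), a laminin chain, and Pdia6 (0.40), a protein disulphide isomerase. Fbln5 was most like Rbms3 (0.53) and Myadm (0.44), Efemp2 like Rnaset2b (0.44) and Rpn2 (0.44), and Ltbp4 like Eif4g1 (0.48) and Ddx6 (0.42). The mean level of the 10 genes was most like Myadm (0.54), Rbms3 (0.52), Nbl1 (0.50), Ptms (0.50), Itgb5 (0.48), Tma7 (0.46), Tma7-ps (0.45) and Ugp2 (0.44). The reads of Tma7-ps may be those of its parent gene Tma7.

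Other genes of the elastic fibre pathway were taken from 6 lists, also chosen with earlier results of these data known. Of 76 genes, 61 had a row and 55 were found in at least 3 cells, of which 40 had a difference of at least 1 towards stromal cells, as 35.6% of all genes did, 3 towards other cells and 12 neither, with a median difference of 2.17. The microfibril glycoproteins were 8 of 12 higher with a median of 4.24. Mfap5 was in 57 of 58 stromal cells and 10 of 27 other cells (difference, 11.24), and Mfap2, its relative on microfibrils, in 29 stromal cells and 0 other cells (4.96). Emilin2 and Ltbp1 were in 39 and 43 stromal cells, while Mmrn2, an endothelial member of the EMILIN family, was lower in stromal cells.

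Of the cross-linking and assembly genes, 7 of 11 were higher, where 35.6% of all genes were, with a median of 1.53. Loxl1, a lysyl oxidase that acts on elastin, was in 52 of 58 stromal cells and 0 of 27 other cells (difference, 9.28), and Loxl2 and Loxl3 were in 38 and 26 stromal cells. Lox itself was in 1 stromal cell, and Tgm2, a transglutaminase, was lower in stromal cells. Adamtsl4, which binds fibrillin-1, was in 19 stromal cells. The scarcity of Eln was therefore seen beside a widespread cross-linking enzyme.

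TGF-β family ligands that microfibrils hold were sparse, with 3 of 6 higher, near the 35.6% of all genes, and a median of 0.90. The most frequent was Gdf10, in 19 stromal cells (difference, 3.57), while Tgfb3 and Bmp4 were in 8 each and Tgfb2 in 6. Of the receptors for elastin and microfibrils, 8 of 9 were higher (median, 1.75), among them the integrin genes Itgav in 33, Itgb5 in 30 and Itga9 in 17 stromal cells, and Ctsa, a part of the elastin receptor complex, in 30.

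Of 13 elastolytic proteases listed, Mmp7, Mmp9, Mmp12, Elane and Ctss had no row, so these elastases could not be compared. All 8 of those tested were higher in stromal cells, with a median of 5.63, where 35.6% of all genes were higher. Mmp2, a gelatinase that also cleaves elastin, was in 51 of 58 stromal cells and 4 of 27 other cells (difference, 9.29), and the cathepsin genes Ctsb and Ctsl and the protease gene Htra1 were in 54, 47 and 52 stromal cells. Of the protease inhibitors, 6 of 9 were higher (median, 1.94), led by Serpinf1 (10.72), Timp2 (9.95, in all 58 stromal cells) and Serping1 (8.78), which is also a stromal marker above. Timp4 went the other way, at -5.74, and reached 100 reads in 13 of 27 other cells and in 0 of 58 stromal cells.

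**Figure D5:**
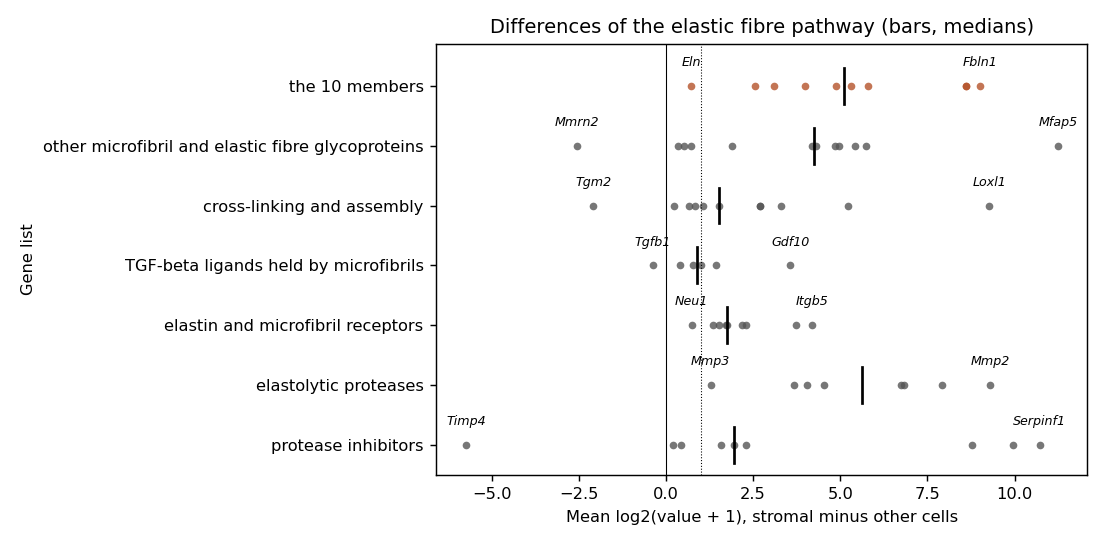
Mean of log2(value + 1), stromal minus other cells (x axis), for the 10 genes and for the tested genes of the 6 pathway lists (rows), with a point per gene and bars at the medians. The lowest and the highest gene of each list are named, from Timp4 at -5.74 to Mfap5 at 11.24, and the dotted line marks a difference of 1.

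Markers of other cell types were measured beside these results. The summed CPM of the 15 endothelial markers was 0 to 14184 in stromal cells (median, 4.63) and 0 to 14846 in other cells (median, 9586). Of 10 smooth muscle and pericyte markers 6 had a row, and their summed CPM had a median of 0 in both classes and a highest value of 641 in stromal and 2013 in other cells. Rgs5 and Mcam were at 0 in all stromal cells, while Acta2, Myh11, Tagln and Cnn1 had no row and so were not analysed here. Among stromal cells the highest summed CPM was 5569 for mesothelial, 538 for Schwann cell and 279 for immune markers, each at 0 in other cells and with a median of 0. Of 8 adipocyte markers 3 had a row, and their summed CPM had a median of 286 in stromal and 221 in other cells. Lpl, the lipoprotein lipase gene, was in 53 stromal and 15 other cells, Pparg in 2 stromal and 11 other cells, and Adipoq in 1 stromal cell. Their part in the levels of the elastic fibre genes was not tested.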

How the data were processed

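Reads of each cell were aligned by the authors to mm9 (HISAT2 2.0.5), processed further in SAMtools 1.4 and StringTie 1.3.3, and normalized with the default scaling of scater after cells under 800000 aligned reads had been left out. The read counter is not given in the sources used here. The values the authors deposited are a signal of normalized read counts, not whole in 5404 genes. Those genes fell into 13 groups, each multiplied by its own factor per cell (0.0157 to 94.5), and dividing by the factor gave whole reads for 144256 of 144272 values above 0, while the other 16 were rounded. The methods describe no scaling by groups, and the 10 genes lie in 5 of the groups.

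The members and lists were chosen with earlier results of these data known. Genes named beside the 10 were the markers, up to 4 per pathway list with the largest absolute difference plus those below -1 and Lox (chosen after its value was seen), and the genes of highest rho (8 for the mean, 2 per gene above 0 in 20 or more stromal cells). Differences are of log2(value + 1), for genes above 0 in at least 3 cells. SMARTseq v4 reads carry no strand and no molecular identifiers, so exact Clopper-Pearson intervals (95%) and limits (3 cells of the total for a share of 0) cover counting error only. On the opposite strand, Fbn1 overlaps Gm9913, Mfap4 overlaps Mapk7 and Eln overlaps Gm30003. Their reads cannot be told apart, but Gm9913 and Mapk7 were above 0 in 2 and 3 of the 85 cells. Lengths are of the longest coding GENCODE transcript. No doublet caller was run, as single cells were dispensed, and whether cell 34, with markers of both classes, is a doublet was not tested. Python 3.11.15, numpy 2.4.6, pandas 2.3.3, scipy 1.17.1 and matplotlib 3.10.9 were used.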

Additional observations from a re-analysis of the deposited data

How the results depend on the processing

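Results were recomputed under 15 other settings. Of these, 2 (leaving out cell 50, and a threshold of 1000 recovered reads of Dcn) were chosen after seeing the data. Of 262 recomputed values, 259 were called the same and 0 reversed. Some of these could not move. A Dcn threshold of 3000 selected the same 58 and 27 cells. A pseudocount of 10 cannot change a rank correlation, and all 10 genes passed every filter. A gene's difference, or a median of genes per cell, could move by less than the SD across cells. The median difference could move by less than the SD across the 10 genes, and the median rho by less than the SD across pairs. Shares had to stay within their interval and counts within 1.5 times. The SDs were wide, so a value could move far and still be called the same. Without cell 50, the pairs with a rho of at least 0.3 fell from 5 to 3 of 28. The other exceptions were at a detection level of 100 reads, where the share of stromal cells fell to 5.17% for Eln and 77.6% for Fbln1. The settings changed the Dcn threshold, the markers that define stromal cells, the cells kept, the detection level, the depth, the scale, the pseudocount and the filter. The median difference of the 10 genes ranged from 3.56 to 5.32, genes per stromal cell from 5 to 6, genes per other cell from 0 to 1, the median rho from 0.0558 to 0.104 and the pathway genes higher in stromal cells from 34 to 40. The counts of 6 genes in at least 50% of stromal cells and of 9 genes with a difference of at least 1 did not change under any setting that recomputed them. A share rests on 58 or 27 cells, and the intervals show what that allows. No animal is named, so variation between animals could not be measured. No paired analysis was possible because there is 1 group, which shares no replicate numbers with another.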
